A study of Homo sapiens with 16 samples.

Results

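The transcripts described here are 10 inflammatory cytokines and chemokines, namely the chemokines CXCL1, CXCL2, CXCL3 and CXCL8 and the cytokines IL6, LIF, IL1A, IL1B, IL24 and CSF2. They were taken by name, through the Ensembl identifier that carries each symbol, and are 10 of the 60719 genes in the count tables. The study asked how loss of TXNIP, an arrestin-family protein that restrains glucose uptake, changes transcription that depends on Myc, and it sequenced polyadenylated RNA from 16 samples of the human line MDA-MB-231, which came from a triple-negative breast cancer and has mesenchymal features. Parental 231 cells (wild-type, untreated) and 231:TKO cells (TXNIP knockout made with a CRISPR/Cas9 plasmid, untreated) had 2 libraries each. Cells of both genotypes were also given a non-targeting siRNA (parental 231+siNT and 231:TKO+siNT) or an siRNA against Myc (parental 231+siMyc and 231:TKO+siMyc) for 48 hours, with 3 libraries per condition. All cells grew in the same serum-containing medium, and the knockout line was derived from isolated single cells, so that differences between the genotypes include any that arose when the line was made.

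CXCL1, CXCL2, CXCL3 and CXCL8 are small secreted proteins that attract neutrophils through the receptor CXCR2. IL6 and LIF signal through receptors that share the gp130 subunit and activate JAK kinases and STAT3, IL1A and IL1B are the ligands of the interleukin-1 receptor, CSF2 (GM-CSF) drives growth of granulocytes and macrophages, and IL24 is a cytokine of the interleukin-10 family. Transcription of most of these genes is known to be switched on by NF-kB and AP-1, their mRNAs are short-lived through AU-rich elements, and MDA-MB-231 cells are known to secrete IL-6 and CXCL8.

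The 4 chemokine genes lie within 358.7 kb of chromosome 4, and IL1A and IL1B lie within 62.9 kb of chromosome 2. On GRCh38, as the count tables give them, CXCL8 spans chr4:73740541-73743716 and CXCL1 chr4:73869393-73871308, both on the plus strand, and CXCL3 spans chr4:74036589-74038807 and CXCL2 chr4:74097040-74099196, both on the minus strand. IL1A is at chr2:112773925-112784493 and IL1B at chr2:112829751-112836816, on the minus strand. IL24 is at chr1:206897443-206904139, CSF2 at chr5:132073789-132076170 and IL6 at chr7:22725884-22732002, on the plus strand, and LIF is at chr22:30240453-30246759 on the minus strand. Counts were of reads over the exons of each gene. CXCL1, CXCL2 and CXCL3 are close paralogs, so reads that align to more than one of them may be missing from their counts. The 150 bases before the RefSeq transcription start (GRCh38.p14) are shown for the 4 chemokines and IL6, which stood lower in untreated than in siRNA-treated cells. That was also so for CSF2, IL1A, IL1B and LIF, which are not shown, so the choice does not stand for all such members. IL24 is shown because it had the largest difference between the genotypes among siRNA-treated cells. Each is written 5′ to 3′ on the gene's own strand, with capitals for matches to GGNNTTTCC, a sequence of the kind NF-kB binds.
CXCL1 (chr4:73869243-73869392, plus strand): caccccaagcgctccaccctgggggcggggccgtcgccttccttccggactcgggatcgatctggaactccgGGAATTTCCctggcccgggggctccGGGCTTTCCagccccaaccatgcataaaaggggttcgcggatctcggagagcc
CXCL2 (chr4:74099196-74099345, minus strand): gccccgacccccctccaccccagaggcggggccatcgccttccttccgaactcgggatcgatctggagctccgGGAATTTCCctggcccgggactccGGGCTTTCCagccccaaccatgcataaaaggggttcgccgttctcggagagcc
CXCL3 (chr4:74038690-74038839, minus strand): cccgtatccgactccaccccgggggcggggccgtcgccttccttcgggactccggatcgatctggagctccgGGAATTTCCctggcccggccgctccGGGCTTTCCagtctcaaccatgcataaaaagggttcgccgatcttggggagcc
CXCL8 (chr4:73740419-73740568, plus strand): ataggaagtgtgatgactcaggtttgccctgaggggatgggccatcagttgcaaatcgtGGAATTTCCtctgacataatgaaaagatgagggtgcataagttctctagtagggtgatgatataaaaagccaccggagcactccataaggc
IL6 (chr7:22727050-22727199, plus strand): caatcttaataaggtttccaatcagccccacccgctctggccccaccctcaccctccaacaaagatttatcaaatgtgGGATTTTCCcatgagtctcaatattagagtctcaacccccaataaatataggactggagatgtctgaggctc
IL24 (chr1:206897293-206897442, plus strand): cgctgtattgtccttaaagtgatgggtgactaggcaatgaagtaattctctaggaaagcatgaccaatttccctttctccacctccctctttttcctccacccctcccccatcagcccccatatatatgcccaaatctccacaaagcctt

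Over these 150 bases CXCL1 was 88.7% identical to CXCL2 and 88.1% identical to CXCL3, whereas CXCL8 was 45.1% identical to CXCL1. The 3 near-identical promoters each held 2 matches to GGNNTTTCC, the first beginning 77 or 78 bases before the start and the second at 53 bases before it. CXCL8 held 1 match at 91 bases before the start and IL6 held 1 at 72 bases. Promoter sequences from windows that also take in bases further upstream and just past the start were found for 9 of the 10 members (LIF was not among the promoters used). Of these 9, 5 held GGNNTTTCC on either strand, against 6.26% of 35116 promoters. These 5 were the chemokines and IL6. IL24 held none, nor did CSF2, IL1A and IL1B, whose promoters are not printed here. The AP-1 sequence TGANTCA was present for CXCL8 and IL1A (2 of 9, against 7.71% of all promoters), the C/EBP-type sequence TTNNGNAA for CXCL2, IL6, IL1A, IL1B and IL24 (5 of 9, against 36.8%) and TATAAA for CXCL8 and IL1A (2 of 9, against 11.5%). The E-box CACGTG, the sequence that Myc binds with MAX, was present for 0 of the 9 members, against 7.26% of all promoters. A member was counted if any of its windows held the match, and IL1A had a further window, whereas the shares over all promoters count each promoter by itself. Both strands were searched for each sequence, and a match or its absence describes letters only.

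Total counts lay between 18953668 and 59799444 per library. Levels are in CPM, which is a gene's count scaled to a common library size with TMM factors. TXNIP was at 283 CPM in both parental 231 libraries and at 12.4 and 45.5 CPM in the 231:TKO libraries, and in the siRNA-treated cells it was between 302 and 467 CPM in parental 231 and between 6.54 and 10.2 CPM in 231:TKO. MYC was between 58.1 and 67.6 CPM in the 6 siMyc libraries and between 121 and 144 CPM in the 6 siNT libraries. VIM, CD44, CAV1, KRT18 and EGFR, which MDA-MB-231 cells express, were each above 135 CPM in every library. Of the markers taken beforehand as low in this line, ESR1 and PGR were at or below 0.305 CPM. CDH1 and EPCAM, taken as low too, were detected in every library, at 0.267 to 9.42 CPM and 12.2 to 31.3 CPM. Of 7 blood cell markers TYROBP had 0 counts in every library and CD3E reached 0.0284 CPM, while CD14 lay between 0.433 and 26.1 CPM. The others reached at most 3.93 CPM (LYZ), 1.48 CPM (PTPRC), 0.681 CPM (ITGAM) and 0.448 CPM (CD79A). Where these markers are summed below, the higher sums are therefore mostly CD14. The untreated 231:TKO libraries differed from each other far more than the parental 231 libraries did, with a chi-square of their counts per degree of freedom of 38.8 against 2.02. Parental 231+siNT replicate 1 and parental 231+siMyc replicate 3 stood apart from the other 4 siRNA-treated parental 231 libraries in the same way (correlation of their deviations from the condition means 0.93 over 10959 genes). Single reads were counted for the untreated conditions and read pairs for those given siRNA, and the siRNA-treated parental 231 libraries were counted on a later gene annotation than the rest, although the annotated length of each member was the same in both. The study's text calls the RNA-seq replicates biological, whereas the labels only number them and do not name separate cultures, so the p-values below measure the spread between these libraries, which may be technical. In bulk RNA, fewer expressing cells and less RNA per cell cannot be told apart.

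The order of the 10 transcripts differed between untreated and siRNA-treated cells. Per kilobase of exon, LIF was the most abundant by its mean in untreated cells, at 10.7 ± 0.341 CPM per kb in parental 231 and 8.21 ± 0.378 CPM per kb in 231:TKO (SD, n = 2). IL24 (4.35 ± 0.149 CPM per kb) and IL6 (4.04 ± 0.200 CPM per kb) followed in parental 231, overlapping within their SDs, and all other members were at or below 1.12 CPM per kb. In 231:TKO, IL24 (6.72 ± 6.53 CPM per kb) overlapped LIF and stood above it in replicate 1 (11.3 against 7.94 CPM per kb). In all 4 siRNA-treated conditions CXCL8 ranked first by its mean, between 30.2 ± 8.36 CPM per kb in 231:TKO+siMyc and 52.5 ± 9.37 CPM per kb in parental 231+siNT (SD, n = 3), and CXCL3 ranked last, between 0.577 ± 0.343 and 1.09 ± 0.170 CPM per kb. In parental 231+siNT the order after CXCL8 was CSF2 (45.0 ± 8.21 CPM per kb), IL6 (24.9 ± 2.97), LIF (23.2 ± 2.40) and CXCL1 (12.5 ± 1.47), in which CXCL8 and CSF2 overlapped within their SDs, as did IL6 and LIF. In 231:TKO+siNT, CSF2 (21.6 ± 1.604 CPM per kb), IL6 (21.4 ± 5.97), LIF (18.5 ± 0.561) and IL24 (17.4 ± 3.20) came after CXCL8 (48.8 ± 11.1) and lay close to each other, and IL24 stood in the fifth place instead of the seventh it had in parental 231+siNT.

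**Figure D1:**
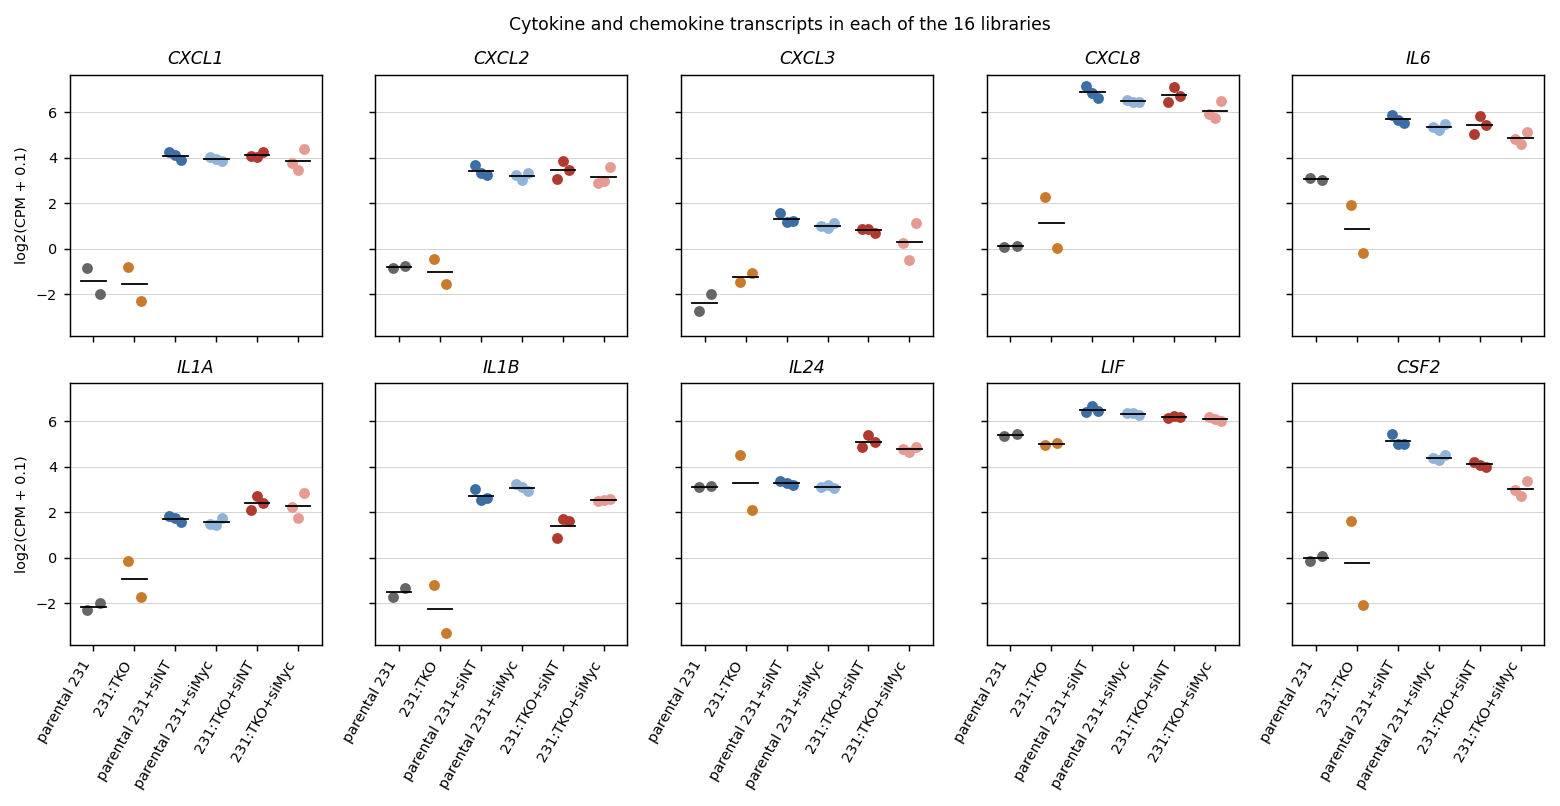
Log2 of CPM (plus a pseudocount of 0.1) of each transcript in each of the 16 libraries, 1 point per library and a line at the condition's mean of the log2 values, for 2 libraries in each untreated condition and 3 in each siRNA-treated condition. Except for IL24 and LIF, the untreated libraries lie well below the siRNA-treated ones, and for most members the 2 libraries of 231:TKO are far apart.

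Levels in siNT-treated cells stood far above those in untreated cells for 8 of the 10 members in parental 231. CXCL8 was at 0.966 and 0.995 CPM in parental 231 and at 139.6, 116 and 97.8 CPM in parental 231+siNT. CXCL1 was at 0.458 and 0.149 CPM (9 and 3 counts) and at 19.0, 17.0 and 14.98 CPM. CSF2 was at 0.814 and 0.946 CPM and at 42.9, 31.8 and 31.7 CPM. No siNT library overlapped an untreated one in any of these. As ratios of pooled counts over pooled total counts, without TMM factors, CXCL8 was 111 times higher (81.2 to 156), CXCL1 52.1 times (29.8 to 101) and CSF2 37.3 times (26.8 to 53.6). The 95% intervals in brackets cover counting error only. IL1B, IL1A, CXCL3 and CXCL2 had between 4 and 19 counts in all in the untreated libraries and ratios between 20.5 and 24.2, with intervals from 8.60 to 82.0 for CXCL3. IL6 had a smaller ratio, with 8.65 and 8.06 CPM in parental 231 and 58.3, 49.6 and 46.4 CPM in parental 231+siNT (5.71 times, 5.11 to 6.39), as had LIF, with 40.5 and 42.4 CPM and with 83.5, 101 and 85.6 CPM (2.01 times, 1.91 to 2.12). IL24 was at 8.39 and 8.81 CPM in parental 231 and at 10.1, 9.60 and 8.97 CPM in parental 231+siNT, a ratio of 1.03 (0.915 to 1.16). Ratios of mean CPM, which carry the TMM factors, were higher, at 120 for CXCL8, 6.16 for IL6, 2.17 for LIF and 1.11 for IL24. For LIF this lies outside the interval given, which does not cover a difference in scaling.

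In 231:TKO cells the same members stood higher with siNT, and IL24 did too. CXCL1 was 61.3 times higher (38.2 to 105), CXCL8 39.4 times (33.8 to 46.2), CXCL2 26.1 times (17.7 to 40.1) and IL6 20.02 times (16.9 to 24.0), each against 2 untreated libraries that themselves differed for CXCL8 and IL6 beyond counting error. CXCL3 was 5.29 times higher (3.29 to 9.00) and IL24 2.62 times (2.42 to 2.83), with 28.7, 41.2 and 33.3 CPM in 231:TKO+siNT against 22.4 and 4.15 CPM in 231:TKO. The untreated libraries differed beyond counting error for IL24 too, and its interval does not cover that spread. The log2 difference of mean CPM, each plus a pseudocount of 0.1, was at least 2 for 8 of the 10 members in each genotype, beside 7.66% of 13908 genes in parental 231 and 6.61% of 13690 genes in 231:TKO. In parental 231, 17 genes had a larger difference than CXCL8 by that measure and 65 a larger one than CXCL1. Transfection, the separate sequencing and the counting of single reads against pairs differ together between these libraries and cannot be told apart, so no test was made. The summed level of the 7 blood cell markers, of which CD14 reached the highest level, moved the same way. It went from 3.05 and 3.09 CPM in parental 231 to between 17.0 and 23.4 CPM in parental 231+siNT. In 231:TKO it was 0.633 and 1.03 CPM, and in 231:TKO+siNT between 5.78 and 6.17 CPM. TYROBP was at 0 throughout, and the part of these markers in these differences was not tested.

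**Figure D2:**
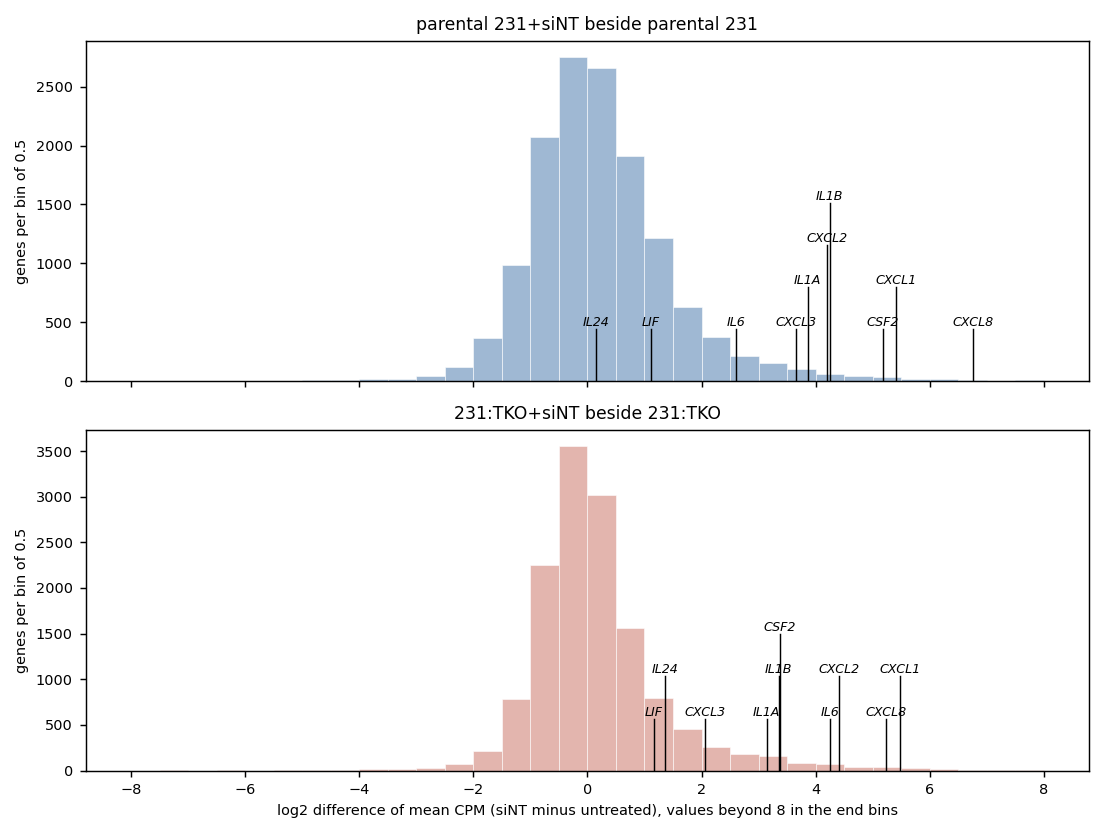
Log2 difference of mean CPM between siNT-treated and untreated cells for all genes with a mean of at least 1 CPM in these libraries (bars, genes per bin of 0.5), for parental 231 above and 231:TKO below, with the 10 members marked by lines. In both genotypes 8 members lie at 2 or beyond, with IL24 and LIF below 2.

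Between the untreated genotypes, 1 of the 10 members passed the threshold (edgeR's quasi-likelihood test, adjusted p of at most 0.05) beside 9.61% of 19965 genes (5.43% higher and 4.18% lower). That member was LIF, which was lower in 231:TKO at 30.7 and 32.8 CPM than in parental 231 at 40.5 and 42.4 CPM, with no overlap. Its log2 fold change was -0.39 ± 0.08 (SE) with an adjusted p of 0.0498. It no longer passed in 5 of 11 alternatives, such as with offsets for neighbouring genes (-0.33, adjusted p = 0.071). The fits without parental 231 replicate 1 (-0.43) or 2 (-0.36) are 2 of these 5, and in them 0 of 19147 and 0 of 19130 genes passed. IL6 was at 3.67 and 0.789 CPM in 231:TKO and at 8.65 and 8.06 CPM in parental 231. Both 231:TKO libraries were below both parental 231 libraries, but the log2 fold change of -1.91 ± 0.69 did not pass (adjusted p = 0.18 by edgeR, 0.027 by DESeq2). TXNIP, the deleted gene, did not pass in this fit either, at -3.29 ± 0.65 (adjusted p = 0.059 by edgeR, 0.00095 by DESeq2). A member that did not pass here is therefore not shown to be unchanged. Libraries of the genotypes did not overlap for 2 members that were higher in 231:TKO, CXCL3 and IL1A, and 2 that were lower, LIF and IL6, beside 30% and 27.7% of genes.

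The untreated 231:TKO libraries did not hold the same amount of these transcripts. Replicate 1 was 5.36 times replicate 2 for IL24 (673 and 121 counts), 4.995 times for CXCL8 (140 and 27 counts), 4.61 times for IL6 (110 and 23 counts) and 21.4 times for CSF2 (89 and 4 counts). The exact 95% counting intervals of the 2 libraries did not overlap for 6 of the 10 members, with IL1A and IL1B the others. IL1B had 10 counts in replicate 1 and 0 of 28830390 counts in replicate 2, for which that interval reaches 0.128 CPM. In parental 231 such intervals overlapped for all 10 members. LIF differed least, with a ratio of 0.929. TXNIP itself was at 12.4 CPM in replicate 1 and 45.5 CPM in replicate 2. The fitted direction against parental 231 turned on which 231:TKO library was left out for 6 of the 10 members (CXCL1, CXCL2, CXCL8, IL1B, IL24 and CSF2). Without replicate 1, the fitted log2 fold change in 231:TKO was -1.07 for IL24 and -2.65 for CSF2, and without replicate 2 it was 1.37 for IL24, 1.73 for CSF2 and 2.23 for CXCL8. In these fits 231:TKO was a single library, assumed to vary as little as the 2 parental 231 libraries did. The number of members that passed was 4 without replicate 1, all lower, beside 37.4% of 18714 genes, and 6 without replicate 2, of which 4 were higher, beside 36% of 18859 genes. The summed blood cell markers were at 3.05 and 3.09 CPM in parental 231 and at 0.633 and 1.03 CPM in 231:TKO, and their part in these values was not tested.

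Among the other genes of these pathways, 7 were higher and 9 lower of 92 tested between the untreated genotypes, beside 9.61% of all genes. They included CX3CL1, the membrane-bound chemokine (log2 fold change 1.43), IL11, an interleukin-6 family cytokine (-3.37), NFKB1, which encodes an NF-kB subunit (0.64), STAT3 (-0.57) and SOCS2, a feedback inhibitor of JAK signalling (-1.79). Of 13 JAK-STAT3 genes 2 were higher and 2 lower. Of the AP-1 and C/EBP factors 1 was higher, FOSL1 (0.80), and 3 were lower, with FOSL2 (-0.61) and CEBPB (-0.61) among them. With offsets for the neighbouring genes in windows of 20 Mb, NFKB1 (0.079, adjusted p = 0.57) and FOSL2 (-0.36, 0.31) did not pass.

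Knockdown of Myc in 231:TKO cells raised IL1B and lowered CSF2 and IL24, while the 4 chemokines, IL6, IL1A and LIF did not pass. These 3 of 10 members passed the threshold, beside 27.2% of 22450 genes (13.3% higher and 13.9% lower). The median log2 fold change of the 10 members was -0.36, and that of all genes was 0.01. IL1B was at 1.73, 3.15 and 2.99 CPM in 231:TKO+siNT and at 5.56, 5.70 and 5.81 CPM in 231:TKO+siMyc. Every siMyc library was above every siNT library, with a log2 fold change of 1.09 ± 0.15 and an adjusted p of 1.0e-05 (edgeR). CSF2 fell from 18.4, 16.8 and 15.9 CPM to 7.77, 6.45 and 10.1 CPM, again with no overlap, at a log2 fold change of -1.10 ± 0.11 (adjusted p = 1.8e-07). IL24 was at 28.7, 41.2 and 33.3 CPM with siNT and at 27.5, 24.9 and 29.0 CPM with siMyc. Its groups overlapped by 1 library, and its log2 fold change was -0.37 ± 0.09 (adjusted p = 0.0037). It did not pass without 231:TKO+siMyc replicate 3 (-0.42, adjusted p = 0.12), nor in 1 fit of the 12 siRNA libraries (-0.35, adjusted p = 0.065). Libraries did not overlap for 1 member that was higher with siMyc and 1 that was lower, beside 22.2% and 16.5% of genes.

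CXCL8 was at 87.8, 136 and 103 CPM in 231:TKO+siNT and at 60.04, 53.9 and 88.9 CPM in 231:TKO+siMyc, and IL6 was at 32.3, 57.0 and 43.4 CPM and at 28.1, 23.9 and 35.0 CPM. Both had overlapping groups, through the highest siMyc library (replicate 3) and the lowest siNT library (replicate 1). Their log2 fold changes were -0.72 ± 0.27 (95% interval -1.43 to -0.01, adjusted p = 0.13) and -0.64 ± 0.25 (-1.28 to 0.01, adjusted p = 0.14). CXCL1, CXCL2, CXCL3, IL1A and LIF had log2 fold changes between -0.39 and -0.09 with adjusted p-values of 0.21 or more. Some of these passed under other settings, such as CXCL8 with DESeq2 (adjusted p = 0.033), CXCL8 (0.034) and IL6 (0.020) where only genes with more than 5 counts in every library were tested, CXCL8 in 1 fit of the 12 siRNA libraries (0.048) and LIF with offsets for neighbouring genes (-0.15, 0.014). Where the replicate number was fitted as a block, CXCL1 (-0.25, adjusted p = 0.0044) and CXCL2 (-0.34, 0.00078) passed by edgeR, beside 30.4% of genes. Calls also turned on single libraries. Without 231:TKO+siNT replicate 1, 6 members passed beside 21.3% of 21860 genes, with CXCL2 (-0.51, adjusted p = 0.027), CXCL8 (-0.85, 0.028) and IL6 (-0.82, 8.0e-05) lower as well, and without replicate 2 IL6 passed too (-0.42, 0.017). Without 231:TKO+siMyc replicate 3, 5 members passed beside 31.8% of 21795 genes, with CXCL1 (-0.54, adjusted p = 1.8e-05), CXCL3 (-0.97, 0.0022) and IL1A (-0.42, 0.046) lower and IL24 no longer among them. The summed blood cell markers also rose, from between 5.78 and 6.17 CPM to between 9.98 and 12.02 CPM, and their part in the difference of IL1B was not tested.

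Of 16 NF-kB subunits, kinases and inhibitors 7 were lower and 2 higher with siMyc in 231:TKO cells, at a median log2 fold change of -0.07. The lower ones included REL (-0.42) and CHUK, an IkB kinase (-0.37), and CYLD and NFKBIE, both negative regulators of the pathway, were higher by 0.17 and 0.15, although CYLD did not pass in 7 of 14 alternatives and NFKBIE in 9. Of 13 cytokine mRNA decay and stability factors 6 were lower, such as ZFP36L2 (-0.38) and HNRNPD (-0.33), and 2 were higher, ZFP36L1 (0.21) and MAPKAPK2 (0.18). Of 13 AP-1 and C/EBP factors 5 were lower, with BATF3 (-0.56), and 2 were higher, with JUND (0.46). CX3CL1 (-0.87) and CXCL10 (-0.73) were lower among 11 other chemokines (3 lower in all), and of 17 other cytokines 4 were higher, such as IL34 (1.09), and 3 lower, such as CSF3, which encodes G-CSF (-1.12). In 1 fit of the 12 siRNA libraries, where 9.66% of genes passed, REL, HNRNPD, ZFP36L1, MAPKAPK2 and BATF3 did not pass. Of 12 receptors and antagonists 1 was higher and 2 were lower. The shares called of a list lay between 25% (receptors and antagonists) and 61.5%, beside 27.2% of all genes.

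Knockdown of Myc in parental 231 cells gave 0 of 10 members past the threshold by edgeR, beside 0.594% of 23728 genes (0.24% higher and 0.354% lower), with 4 members at an unadjusted p under 0.05. CSF2 was the nearest, at 42.9, 31.8 and 31.7 CPM in parental 231+siNT and at 20.6, 19.2 and 22.6 CPM in parental 231+siMyc. Every siMyc library was below every siNT library, the log2 fold change was -0.76 ± 0.14, and the adjusted p was 0.069 by edgeR and 0.00060 by DESeq2, which called this member and no other. IL1B was at 7.91, 5.69 and 6.13 CPM with siNT and at 9.21, 8.42 and 7.53 CPM with siMyc, groups that overlapped by 1 library (log2 fold change 0.36 ± 0.15, adjusted p = 0.32). CXCL8 was at 139.6, 116 and 97.8 CPM and at 92.3, 87.2 and 85.8 CPM, with no overlap (-0.40 ± 0.13, adjusted p = 0.21). In all, 5 members were lower with siMyc without overlap, beside 11.6% of genes, and 0 were higher without overlap, beside 9.74%. The median log2 fold change of the members was -0.19, and that of all genes was -0.0016.

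The pair of libraries that stood apart weighed on these counts. With a factor for that pair 4 members passed, CSF2 (-0.75, adjusted p = 7.4e-15), IL6 (-0.32, 1.2e-06), IL1B (0.37, 0.0071) and LIF (-0.17, 0.0073), beside 26.8% of genes (6363 instead of 141). With the pair left out 5 members passed, CXCL8 as well (-0.25, 0.024), beside 20.8% of 22445 genes. Both settings were chosen after the data had been seen, as were the libraries of the pair. Of 96 other genes of the pathways tested 2 passed in the fit without such a factor, CX3CL1 (-0.77, adjusted p = 0.038) and CSF3 (-0.91, 0.049), both lower, which did not pass in 7 and 9 of 16 alternatives, with 14 at an unadjusted p under 0.05 and 6 called by DESeq2.

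The responses of the genotypes to siMyc were compared directly in 1 fit of the 12 siRNA libraries. Of 25812 genes 0 passed by edgeR, and so did 0 of the 10 members (0% of all genes), with 1 member and 1039 genes at an unadjusted p under 0.05. DESeq2 called 0 members. The member was IL1B, whose log2 fold change with siMyc was higher in 231:TKO than in parental 231 by 0.75 ± 0.24 (95% interval 0.24 to 1.26, unadjusted p = 0.0062, adjusted p = 1.00). For CSF2 the difference was -0.32 ± 0.20 (interval -0.75 to 0.11), and for CXCL8 it was -0.29 ± 0.28 (-0.90 to 0.32). With a factor for the pair of libraries that stood apart 147 genes passed, again without any of the 10 members (IL1B 0.75, adjusted p = 0.074). A difference in response was therefore not detected for any member, and intervals of this width do not show that the responses were alike.

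**Figure D3:**
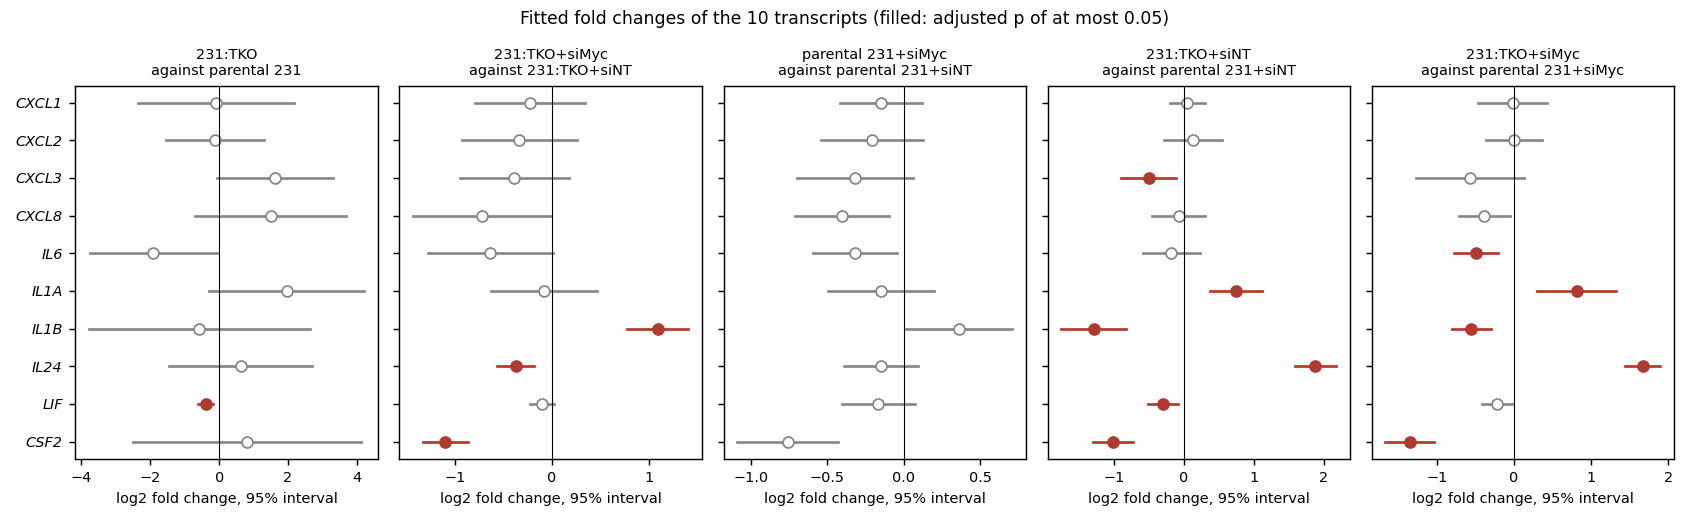
Fitted log2 fold changes (points) with 95% intervals (lines) of the 10 transcripts in 5 comparisons, from edgeR, with filled red points for an adjusted p of at most 0.05 and open grey points otherwise; the horizontal scales differ between panels. IL24 is far to the right and CSF2 to the left in both comparisons of siRNA-treated genotypes, and the intervals of the untreated comparison are the widest.

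Between the genotypes treated with siNT, 6 of the 10 members passed, beside 36.8% of 23310 genes (16.1% higher and 20.7% lower). IL24 and IL1A were higher in 231:TKO, and IL1B, CSF2, LIF and CXCL3 were lower. IL24 was at 28.7, 41.2 and 33.3 CPM in 231:TKO+siNT and at 10.1, 9.60 and 8.97 CPM in parental 231+siNT, which is a log2 fold change of 1.88 ± 0.13, or 3.68 times (adjusted p = 1.4e-06, edgeR). IL1A was at 4.13, 6.36 and 5.16 CPM and at 3.48, 3.21 and 2.86 CPM. Its log2 fold change was 0.75 ± 0.17 (adjusted p = 0.0051). IL1B, the neighbouring gene, went the other way, at 1.73, 3.15 and 2.99 CPM in 231:TKO+siNT and at 7.91, 5.69 and 6.13 CPM in parental 231+siNT (-1.29 ± 0.21, adjusted p = 0.00065). CSF2 was at 18.4, 16.8 and 15.9 CPM and at 42.9, 31.8 and 31.7 CPM (-1.02 ± 0.13, adjusted p = 0.00011). None of these 4 members had overlapping libraries. Over the 10 members the median log2 fold change was -0.13, and over all genes it was -0.03.

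LIF was at 69.2, 73.5 and 71.9 CPM in 231:TKO+siNT and at 83.5, 101 and 85.6 CPM in parental 231+siNT (-0.29 ± 0.10, adjusted p = 0.035), and CXCL3 was at 1.73, 1.74 and 1.49 CPM and at 2.85, 2.19 and 2.20 CPM (-0.51 ± 0.18, adjusted p = 0.045). Neither overlapped, so that libraries were apart for all 6 called members, 2 of them higher and 4 lower, beside 22.1% and 29.5% of genes. CXCL3 and LIF were the least stable of these calls, since CXCL3 did not pass in 10 of 15 alternatives and LIF in 7 of 15. Leaving out any 1 of the 3 231:TKO+siNT libraries took LIF to adjusted p-values between 0.088 and 0.14 and CXCL3 to between 0.089 and 0.16, and without parental 231+siNT replicate 2 LIF also did not pass (0.14), nor CXCL3 without replicate 1 (0.13) or 3 (0.058). The other chemokines were close between the genotypes. CXCL8 was at 87.8, 136 and 103 CPM in 231:TKO+siNT beside 139.6, 116 and 97.8 CPM (log2 fold change -0.07, interval -0.45 to 0.31), and CXCL1 was at 16.5, 16.1 and 18.8 CPM beside 19.0, 17.0 and 14.98 CPM (0.05, -0.20 to 0.30). Without parental 231+siNT replicate 1, which stood apart, IL24 (1.94), IL1A (0.83), IL1B (-1.13), CSF2 (-0.84) and LIF (-0.33) still passed. CXCL2 and IL6 also overlapped (0.13, interval -0.29 to 0.54, and -0.18, interval -0.59 to 0.22).

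Between the genotypes treated with siMyc, 5 of 10 members passed, beside 40.6% of 23561 genes (18.8% higher and 21.7% lower), at a median log2 fold change of -0.30 over the members. None of these libraries is part of the siNT comparison. IL24 was at 27.5, 24.9 and 29.0 CPM in 231:TKO+siMyc and at 8.56, 8.97 and 8.17 CPM in parental 231+siMyc (1.67 ± 0.10, adjusted p = 4.6e-08). CSF2 was at 7.77, 6.45 and 10.1 CPM and at 20.6, 19.2 and 22.6 CPM (-1.35 ± 0.15, adjusted p = 8.2e-06). IL1B was at 5.56, 5.70 and 5.81 CPM and at 9.21, 8.42 and 7.53 CPM (-0.56 ± 0.12, adjusted p = 0.0019). All 3 were called in the same direction as with siNT, with no overlap and in each of 15 alternatives in either comparison. IL1A was higher at 4.62, 3.29 and 7.04 CPM against 2.69, 2.60 and 3.26 CPM (0.81 ± 0.23, adjusted p = 0.016), although without 231:TKO+siMyc replicate 3 it did not pass (0.48, adjusted p = 0.095). IL6 was lower at 28.1, 23.9 and 35.0 CPM against 41.2, 37.5 and 44.3 CPM (-0.49 ± 0.13, adjusted p = 0.0082). It did not pass without 231:TKO+siMyc replicate 2 (-0.37, adjusted p = 0.060), nor in 1 fit of the 12 siRNA libraries (-0.48, adjusted p = 0.052). LIF was at 72.0, 68.1 and 64.3 CPM and at 81.9, 80.7 and 76.2 CPM, groups that did not overlap but were not called (-0.22 ± 0.09, adjusted p = 0.074). Without parental 231+siMyc replicate 3, which stood apart, the 5 members still passed and LIF passed as lower too (-0.25, adjusted p = 0.0019). In all, 2 members were higher and 4 lower without overlap, beside 25.6% and 28% of genes.

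Neighbouring genes shifted between the genotypes where IL1A, IL1B and the chemokine cluster lie. In windows of 20 Mb the median log2 fold change of the other genes in the siNT comparison was 0.47 around IL1A and IL1B and 0.22 around the 4 chemokines, and 0.47 and 0.25 in the siMyc comparison. Around IL24 it was 0.13 and 0.20. With offsets for these windows, IL1A was at 0.26 (adjusted p = 0.27) with siNT and 0.30 (0.30) with siMyc, and IL1B was at -1.78 (0.00012) and -1.06 (1.5e-05). CXCL8 (-0.64, adjusted p = 0.0024) and CXCL3 (-0.83, 0.047) then passed as lower with siMyc, and LIF did not pass with siNT (-0.19, 0.18). Genotype, annotation release and sequencing set differ together between these libraries and cannot be told apart. The summed blood cell markers also differed, from 17.0 to 23.4 CPM in parental 231+siNT against 5.78 to 6.17 CPM in 231:TKO+siNT, and from 25.8 to 29.8 CPM in parental 231+siMyc against 9.98 to 12.02 CPM in 231:TKO+siMyc; their part was not tested.

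Of 96 other genes of these pathways tested, 26 were higher and 27 lower in 231:TKO with siNT, beside 36.8% of all genes. The list with the highest share called was that of other chemokines, of which 8 were higher and 1 lower of 12 tested (75.0%, at a median log2 fold change of 0.73). CCL2, which attracts monocytes, was higher by 2.97 and CCL5 by 1.74, and CCL26 was lower by 2.62 on the log2 scale. Of 17 other cytokines 3 were higher and 7 lower, with EBI3 at 1.00 and IL11 at -4.69. Among 12 receptors and antagonists tested 5 were higher and 1 lower, and the higher ones included IL1RN, the interleukin-1 receptor antagonist (1.94), and CSF2RA, the alpha subunit of the GM-CSF receptor (1.19). TNFAIP3, an inhibitor that NF-kB induces, was higher by 1.08, and BCL3 was at -0.79. Of the AP-1 and C/EBP factors FOSL1 was higher (1.04) and 7 of 13 were lower, with FOS at -1.35 and JUND at -1.10. RC3H1, which encodes the mRNA decay factor roquin, was higher by 1.27 and ZFP36, which encodes tristetraprolin, was at -0.46. Of 13 JAK-STAT3 genes 2 were higher, with JAK1 at 1.03, and 6 were lower, with SOCS2 at -3.05 and PIAS3 at -1.42. In the siMyc comparison the same named genes had CCL2 at 2.78, CCL5 at 1.64, IL11 at -4.97, IL1RN at 1.95, TNFAIP3 at 1.12, FOSL1 at 0.94, RC3H1 at 1.28 and SOCS2 at -2.84, all past the threshold, among 20 higher and 34 lower of 96, beside 40.6% of all genes.

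The genotype contrast with siNT was also set against the untreated one in 1 fit of 10 libraries. Of the 10 members 1 passed, beside 14.1% of 25112 genes (6.2% higher and 7.91% lower). This was CXCL3, for which the siNT contrast was below the untreated contrast, with a difference of -2.14 ± 0.65 on the log2 scale (adjusted p = 0.038, edgeR). The untreated values rest on 1 and 3 counts in parental 231 and 8 and 11 counts in 231:TKO, and the call was lost without parental 231 replicate 1 (-1.59, adjusted p = 0.23) or 2 (-3.08, 0.060), without 231:TKO replicate 2 (-1.87, 0.15) and without any 1 of the 231:TKO+siNT libraries (0.057 to 0.070). IL6 (1.72 ± 0.68, adjusted p = 0.16) and CSF2 (-1.84 ± 1.14, adjusted p = 0.38) did not pass. Without 231:TKO replicate 1, IL6 (3.22) and IL24 (2.94) passed beside 17.1% of 24650 genes, and without 231:TKO replicate 2, CXCL8 (-2.31) and CSF2 (-2.76) passed beside 13.2% of 24715 genes. In both fits the lone 231:TKO library is assumed to vary like the other groups. Of 97 other genes of the pathways 16 were higher and 9 lower in this difference, beside 14.1% of all genes, with TNFAIP3 at 1.66, SOCS1 at -2.34 and IL11 at -1.32.

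Within the siRNA-treated conditions most members deviated together from library to library. After each condition's mean was removed, Pearson's r over the 12 libraries was above 0.5 for 28 of the 36 pairs that leave LIF out, with the highest value of 0.93 for CXCL2 with IL6, 0.92 for CXCL2 with CXCL8 and 0.91 for CXCL8 with IL6. The lowest among these pairs was 0.05, for IL1B with CSF2. LIF stood outside this pattern, with r between -0.57 and 0.18, below 0 in 8 of its 9 pairs. The 12 libraries share 4 condition means and members share each library, so these values are a description. The share of such pairs over all genes was not computed. In the siRNA-treated parental 231 libraries, principal component 1 held 89.4% of the variance within conditions over 10959 genes. Deviating together can therefore not be read as particular to these members. In 231:TKO+siMyc replicate 3, 9 of 10 members were above the condition mean, by 0.88 for CXCL3, 0.56 for IL1A and 0.53 for CXCL1 on the log2 scale, and LIF was at -0.08. In 231:TKO+siMyc replicate 2 CXCL3 was at -0.84 and IL1A at -0.53. In parental 231+siNT replicate 1, 9 of 10 members were also above the mean and LIF was not, and this library is one of the pair that stood apart. In the other library of that pair, parental 231+siMyc replicate 3, 5 of 10 members were above the mean.

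**Figure D4:**
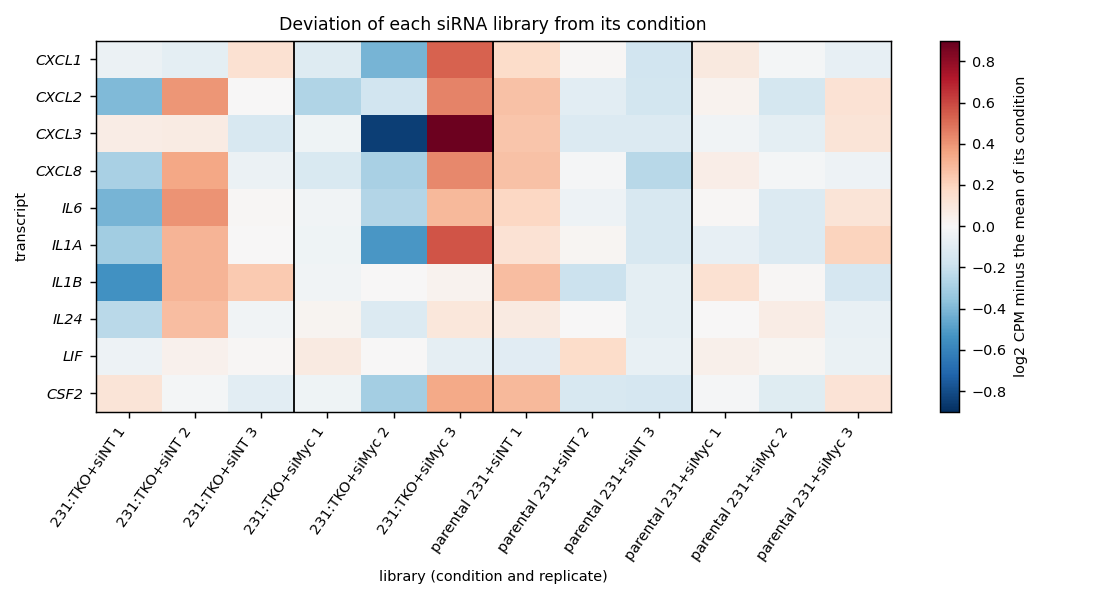
Deviation of each siRNA-treated library (columns, by condition and replicate) from the mean log2 CPM of its condition for each transcript (rows), on a colour scale from blue (below) to red (above). 231:TKO+siMyc replicate 3 and parental 231+siNT replicate 1 are red for 9 of 10 members, and LIF stays near 0 in the 231:TKO libraries.

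Over the same 12 libraries the genes whose log2 CPM followed the mean of the 10 members most closely were TMEM237 (Pearson's r 0.87), ALG13 (0.86), ALG2 (0.84), POGLUT2 (0.83) and ZNF101 (0.82), out of 13521 genes ranked. They lie on 5 different chromosomes (2, X, 9, 13 and 19), and TMEM237 shares chromosome 2 with IL1A and IL1B.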

How the data were processed

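RNA from 16 samples in 6 conditions was sequenced. The authors aligned the reads with STAR (version not given in the sources used here) to GRCh38 and, per the file headers, counted strand-specific reads per gene with featureCounts 1.6.3 on Ensembl release 102 or 104 (siRNA-treated parental 231), as single reads (untreated) or pairs. The deposited values are raw counts. Samples were grouped by their labels. The members and all gene lists were chosen with earlier results of these data known. A gene was tested where its counts in the libraries compared summed to more than 5, with edgeR 4.0.16 (TMM scaling, robust quasi-likelihood test, two-sided, Benjamini-Hochberg over all genes tested, threshold 0.05) in R 4.3.3. The 10 members passed this filter in each comparison. DESeq2 1.42.0, other filters and scalings, a replicate block, offsets for neighbouring genes and omission of each library were alternatives. CPM values use TMM-scaled library sizes. Ratios of pooled counts, ratios of the untreated 231:TKO replicates and all counting intervals use total counts without TMM factors. Genes named from a list are among the called genes with the 2 largest changes per direction and a mean CPM of 1 or more. Not all such genes are named. The value of 1 list gene is not reported here. Other genes named are values for the same gene in another comparison. Intervals of single libraries or pooled counts are exact and cover counting error only. 3 counts equal 0.0502 to 0.158 CPM. The code was tested on simulated counts. Promoters came from RefSeq.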

Additional observations from a re-analysis of the deposited data

Results flagged for a closer look

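CXCL3 differed in its genotype contrast between untreated and siNT-treated cells, by -2.14 ± 0.65 on the log2 scale (95% interval -3.52 to -0.76, adjusted p = 0.038 by edgeR), and was singled out because the difference between the 2 contrasts itself passed the test. It was at 0.0509 and 0.149 CPM in parental 231 and at 0.267 and 0.378 CPM in 231:TKO, where both untreated 231:TKO libraries were higher, and at 2.85, 2.19 and 2.20 CPM in parental 231+siNT and 1.73, 1.74 and 1.49 CPM in 231:TKO+siNT, where all 231:TKO libraries were lower. The parental 231 values rest on 1 and 3 counts. Leaving out parental 231 replicate 1 gave -1.59 (adjusted p = 0.23) and leaving out replicate 2 gave -3.08 (adjusted p = 0.060).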

How the results depend on the processing

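Depth limited the untreated libraries most, where 7 members had fewer than 25 counts in each parental 231 library. Of 1096 log2 fold changes of the members under alternatives 964 kept their direction and side of the threshold. Of the rest, 40 called values no longer passed, 46 came to pass in the same direction and 46 changed sign. All 46 that changed sign were values that the main fit had not called. Among them, IL24 (-1.07) and CSF2 (-2.65) lay past the threshold between the untreated genotypes without 231:TKO replicate 1, a fit that leaves 1 231:TKO library.
For untreated 231:TKO against parental 231, 2 members passed with DESeq2 (11.2% of all genes) and 0 with an adjusted p of at most 0.01 (1.15%), with the replicate block (4.53%) and with offsets for windows of 20 Mb (9.18%), and from 0 to 6 with 1 library left out (0% to 37.4%, with 0 genes called where 1 parental 231 library remained). For siMyc in 231:TKO cells the count was 5 with more than 5 counts in every library (39.2%) and 5 with the replicate block (30.4%, CXCL1 and CXCL2 as well), and from 3 to 6 with 1 library left out (21.3% to 31.8%). For siMyc in parental 231 it was 1 with DESeq2 (4.68%), without a filter (1.06%) and in 1 fit of 12 libraries (6.45%), 4 with a factor for the pair that stood apart (26.8%) and 5 without that pair (20.8%). For the difference between the untreated and siNT contrasts it was 0 with DESeq2 (17.3%), at 0.01 (7.18%), with the block (12.6%) and with window offsets (12.5%), and from 0 to 3 with 1 library left out (7.08% to 20.6%).
Window offsets changed the sign of CXCL1 (-0.18), CXCL2 (-0.10), IL6 (0.051) and MYC (-0.031) between the siNT-treated genotypes. CXCL2 between the siMyc-treated genotypes was 0.0015 with DESeq2 size factors, 0.0067 with more than 5 counts in every library and 0.011 in 1 fit of 12 libraries. MYC in the difference between the untreated and siNT contrasts was -0.0045 over genes of the same length in both releases. The cause of these changes was not tested.
With 1 library left out, signs changed as follows. Between the untreated genotypes the values ran from -1.52 to 0.90 for CXCL1, -0.995 to 0.39 for CXCL2, -0.10 to 2.23 for CXCL8, -5.57 to 0.38 for IL1B, -1.07 to 1.37 for IL24, -2.65 to 1.73 for CSF2 and -0.14 to 0.22 for MYC. With siMyc in 231:TKO cells IL1A ran from -0.42 to 0.13. Between the siNT-treated genotypes CXCL1 ran from -0.021 to 0.15, CXCL2 from -0.089 to 0.30 and CXCL8 from -0.26 to 0.083, and between the siMyc-treated ones CXCL1 from -0.33 to 0.17 and CXCL2 from -0.26 to 0.13. In the difference between the responses CXCL1 ran from -0.36 to 0.13, CXCL2 from -0.37 to 0.11, CXCL3 from -0.63 to 0.27 and IL1A from -0.25 to 0.30. In the difference between the untreated and siNT contrasts CXCL1 ran from -0.87 to 1.58, CXCL2 from -0.27 to 1.11, CXCL8 from -2.31 to 0.016, IL1A from -1.88 to 0.058, IL1B from -1.69 to 4.88, LIF from -6.8e-06 to 0.18, CSF2 from -2.76 to 1.64 and MYC from -0.16 to 0.20.
Replicate numbers gave no clear pairing of the libraries. Correlations of same-numbered deviations were -0.18, 0.23 and 0.36 for siMyc in 231:TKO cells and -0.88, 0.74 and -0.80 in parental 231. In these comparisons 3 of 6 and 1 of 6 libraries correlated best with their own number. For 231:TKO cells these values do not settle whether the libraries were paired, and with the replicate block 6829 genes passed there instead of 6106.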
